A study of Mus musculus with 5 samples.

Results

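The genes described here encode the nuclear part of the oxidative phosphorylation machinery. They were chosen by name alone, from the Nduf, Sdh, Uqcr, Cox and Atp5 symbols, and 78 of the 20097 gene symbols in the table matched. Of these, 33 belong to complex I, 4 to complex II, 8 to complex III, 18 to complex IV and 14 to complex V. Ndufa4 carries a complex I name but is now placed in complex IV, and it is counted there. Sdhaf2, which the pattern also took, encodes an assembly factor of complex II and not a subunit. Atp5b, Cox6a2 and the genes of the mitochondrial genome were not analysed here.

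RNA was sequenced from the pituitaries of 5 mouse embryos of mixed B6 and 129 background at e12.5. All 5 embryos carried floxed Itgb1 alleles (Itgb1 f/f), and 3 of them, numbered 9, 10 and 12, had no Cre and served as controls. The other 2, labelled knockout 13 and 16, also carried Pitx1-cre and are called libraries 13 and 16 here. Itgb1 encodes integrin beta 1, a receptor subunit for extracellular matrix, and Pitx1-cre acts in the oral ectoderm and the pituitary that forms from it. Cells of the dissected gland outside that lineage, such as vessels, mesenchyme and blood, keep the gene. The labels describe the 5 samples as separate biological replicates of an epithelial cell type.

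Oxidative phosphorylation makes ATP in the inner mitochondrial membrane. Complexes I and II pass electrons from NADH and succinate to ubiquinone, complex III passes them to cytochrome c, and complex IV passes them to oxygen. Complexes I, III and IV pump protons, and complex V, the ATP synthase, uses the resulting gradient. Most subunits are encoded in the nucleus and expressed in nearly all cells, and several complex IV subunits have a second form made in muscle, testis or lung.

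Promoters of these genes often hold sites for NRF1, for the ETS factor GABP and for YY1, and these letters are shown because they are a regulatory feature that members of all 5 complexes can share. RefSeq windows on GRCm38.p6, running from 250 bases before to 50 bases after the start, were found for 65 of the 78 genes. Both strands were searched for an NRF1 core (GCGCATGC), an ETS core (CCGGAAG), a YY1 core (ATGGCGG) and a TATA box (TATAAA). The NRF1 core was in 10 windows, or 15.4%, against 2.8% of 27025 promoters of the same length. An ETS core was in 24.6% against 9.1%, and a YY1 core was in 13.8% against 4.2%. At least 1 of these 3 cores was in 29 windows, 44.6% against 14.5% of all promoters. The TATA letters were in 10.8% against 14.2%. A match is a description of letters and not a bound site, and base composition was not matched. A window with an NRF1 core is shown for 1 gene of each complex, followed by Cox7b2, a second form of a complex IV subunit, which had a TATA match and none of the 3 cores. Each reads 5′ to 3′ along the gene, with matches in capitals. The NRF1 core is not its own reverse complement, but matches on both strands can overlap and then span 10 bases.
Ndufa8 (chr2:36049289-36049588, minus strand): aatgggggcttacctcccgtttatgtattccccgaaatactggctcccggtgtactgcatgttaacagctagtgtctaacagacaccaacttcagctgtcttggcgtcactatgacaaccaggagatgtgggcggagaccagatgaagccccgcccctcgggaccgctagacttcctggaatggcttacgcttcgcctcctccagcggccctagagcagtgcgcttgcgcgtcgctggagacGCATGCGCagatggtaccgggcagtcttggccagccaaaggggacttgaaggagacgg
Sdhb (chr4:140961021-140961320, plus strand): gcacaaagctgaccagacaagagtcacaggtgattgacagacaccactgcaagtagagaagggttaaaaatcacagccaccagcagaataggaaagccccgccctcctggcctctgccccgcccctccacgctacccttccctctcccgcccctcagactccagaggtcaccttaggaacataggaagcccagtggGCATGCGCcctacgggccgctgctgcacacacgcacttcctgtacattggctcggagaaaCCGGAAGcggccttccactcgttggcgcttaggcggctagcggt
Uqcrc1 (chr9:108936398-108936697, plus strand): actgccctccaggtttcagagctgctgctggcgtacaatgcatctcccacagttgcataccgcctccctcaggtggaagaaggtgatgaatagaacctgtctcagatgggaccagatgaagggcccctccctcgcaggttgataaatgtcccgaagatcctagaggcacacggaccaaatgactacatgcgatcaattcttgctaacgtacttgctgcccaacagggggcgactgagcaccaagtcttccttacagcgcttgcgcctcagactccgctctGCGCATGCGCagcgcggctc
Cox6a1 (chr5:115348909-115349208, minus strand): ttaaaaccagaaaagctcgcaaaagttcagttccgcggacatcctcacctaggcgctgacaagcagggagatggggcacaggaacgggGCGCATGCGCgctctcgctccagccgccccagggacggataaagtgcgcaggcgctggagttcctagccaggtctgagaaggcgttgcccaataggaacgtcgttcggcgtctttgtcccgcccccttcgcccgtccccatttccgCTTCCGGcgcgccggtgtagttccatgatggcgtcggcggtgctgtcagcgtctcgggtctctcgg
Atp5k (chr5:108434350-108434649, minus strand): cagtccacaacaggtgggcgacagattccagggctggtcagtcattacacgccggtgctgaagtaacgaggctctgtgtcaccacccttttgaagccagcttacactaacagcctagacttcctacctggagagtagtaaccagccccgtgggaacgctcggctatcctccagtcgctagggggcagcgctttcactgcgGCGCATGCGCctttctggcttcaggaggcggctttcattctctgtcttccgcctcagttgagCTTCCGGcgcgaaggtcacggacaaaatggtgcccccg
Cox7b2 (chr5:71548156-71548455, minus strand): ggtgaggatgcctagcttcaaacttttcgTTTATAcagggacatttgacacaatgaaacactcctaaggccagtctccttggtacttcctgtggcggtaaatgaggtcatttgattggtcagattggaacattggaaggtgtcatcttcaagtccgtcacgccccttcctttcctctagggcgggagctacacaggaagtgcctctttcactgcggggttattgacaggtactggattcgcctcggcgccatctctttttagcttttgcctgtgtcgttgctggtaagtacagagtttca

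Values are tags per 10000000 tags of a library, counted over a gene's whole region, introns included. The reads recovered over all listed genes numbered between 4480809 and 6143263 per library. Those over the 78 genes numbered 2830, 4888 and 3905 in controls 9, 10 and 12, 7320 in library 13 and 3278 in library 16. The ribosomal precursor Rn45s took between 16.8% and 23.5% of all tags in the controls, compared with 14.2% in library 13 and 8.9% in library 16. Of the reads over listed genes other than Rn45s, the 78 genes held 0.084%, 0.136% and 0.110% in the controls, against 0.186% in library 13 and 0.094% in library 16. Olfactory and vomeronasal receptor genes, taken as a measure of background, held 0.258, 0.395 and 0.156 tags per kilobase in the controls, compared with 0.472 in library 13 and 1.498 in library 16. The targeted gene Itgb1 stood at 273, 426 and 431 tags in the controls, against 446 in library 13 and 186 in library 16. After scaling it stood at 340 in library 13 and 105 in library 16, below controls at 429 to 603. Its listed region spans 47.12 kb, and the labels do not say which part is floxed.

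Because most genes were higher in libraries 13 and 16 than in the controls as deposited, values were divided by TMM factors, which centre each library on its typical gene. The factors were 0.606, 0.995 and 0.715 for the controls, 1.31 for library 13 and 1.77 for library 16. With background subtracted first, they were 0.654, 1.095 and 0.946 for the controls, 1.536 for library 13 and 0.961 for library 16. The factor of library 16 thus lay within those of the controls only after that subtraction. Scaling moved the median gene from 0.80 to 0.05 in library 13 and from 1.28 to 0.14 in library 16, as log2(value + 1) minus the control mean. Levels below are scaled unless given as deposited, and all changes are on that log2 scale. The tables were filtered to a mean of at least 1, which 76 of the 78 genes passed. Ndufa13 and Cox8c did not.

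Nearly all oxidative phosphorylation genes stood below the controls in library 16, and in library 13 they stood close to the controls. The median change of the 76 genes was -1.42 in library 16 and 0.10 in library 13, while single controls lay at -0.08, 0.01 and 0.07. In library 16, 68 of the 76 genes were below every control, against 39.8% of all genes, and 3 were above every control, against 43.8%. In library 13, 28 were above every control, against 20.8% of all genes, and 11 were below, against 16.4%. Libraries 13 and 16 were both below every control for 10 genes, against 6.91% of all genes, and both above for 2, against 8.43%. The summed scaled level was 4243, 4466 and 4964 in the controls, compared with 5074 in library 13 and 1682 in library 16. The 2 knockout libraries thus differed, since library 13 lay close to the controls and library 16 alone lay far from them.

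The direction depends on the scale. As deposited, the sum was 2572, 4442 and 3550 in the controls, against 6654 in library 13 and 2975 in library 16, so that library 16 lay within the control range. On that scale, 67 of the 76 genes were above every control in library 13, against 73.3% of all genes. In library 16, 12 were above, against 72.9% of all genes, and 24 were below, against 7.86%. Set against the median gene of the same library, the 76 genes had a median of -1.55 in library 16 as deposited and -1.56 after scaling. With background subtracted before scaling, 73 genes were left. Their median was -1.02 in library 16, with 59 below every control against 37.8% of all genes. In library 13 it was 0.09, with 27 above every control against 22.6%.

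**Figure D1:**
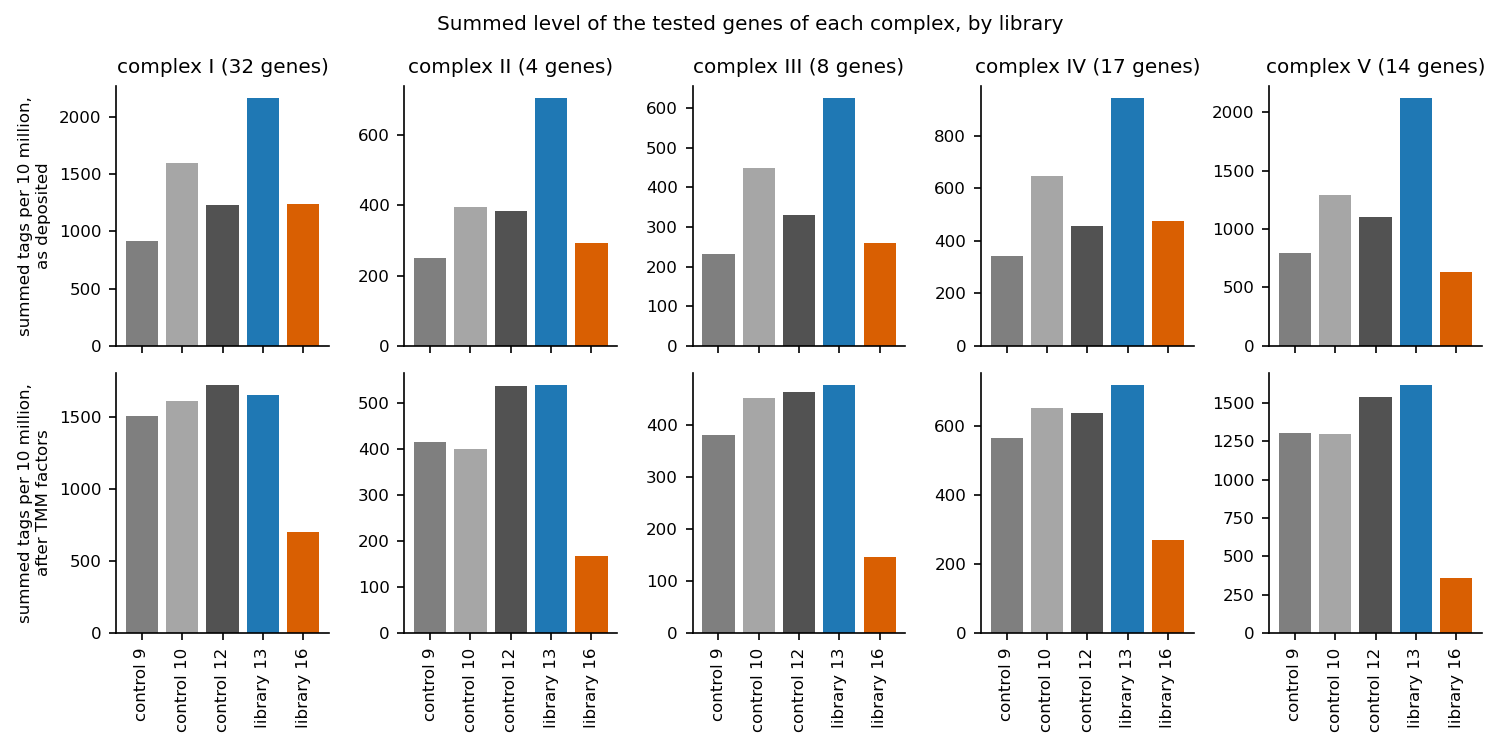
Summed level of the tested genes of each complex in the 5 libraries, in tags per 10000000, as deposited (top) and after TMM factors (bottom), with 1 bar per library. After scaling, library 16 is lowest for every complex, and as deposited library 13 is highest for every complex.

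None of the 76 genes passed the test of knockout against control. The test was limma on log2(value + 1) after TMM scaling, with Benjamini-Hochberg adjustment over 19313 genes. It called 0% of all genes (386 at an unadjusted p under 0.05, with a lowest adjusted p of 0.767). On the recovered reads, edgeR's quasi-likelihood test called 0 genes, with 478 at an unadjusted p under 0.05. DESeq2 called 25 genes, but its filter on low counts left an adjusted p for 965 genes in all and for 1 of the 76, Atp5a1, at 0.705. With that filter turned off, a setting chosen after seeing the data, it called 0 genes, with 353 at an unadjusted p under 0.05, and the lowest adjusted p of the 76 was 0.928. The fitted change was negative for 69 of the 76 genes and positive for 7, with a median of -0.61 against 0.04 for all genes. Ndufs1 was the only gene of the 76 at an unadjusted p under 0.05 in limma, and its adjusted p was 0.767. Without library 13, limma called 30 of 75 genes lower (40%) and 0 higher, against 11.8% of all genes called lower. That fit holds library 16 alone on the knockout side and assumes that it varies like the controls. Without library 16 it called 0 of the genes and 3 genes in all. The authors' deposited table lists 5.1% of the symbols as changed, and 0 of the 78 genes are among them.

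**Figure D2:**
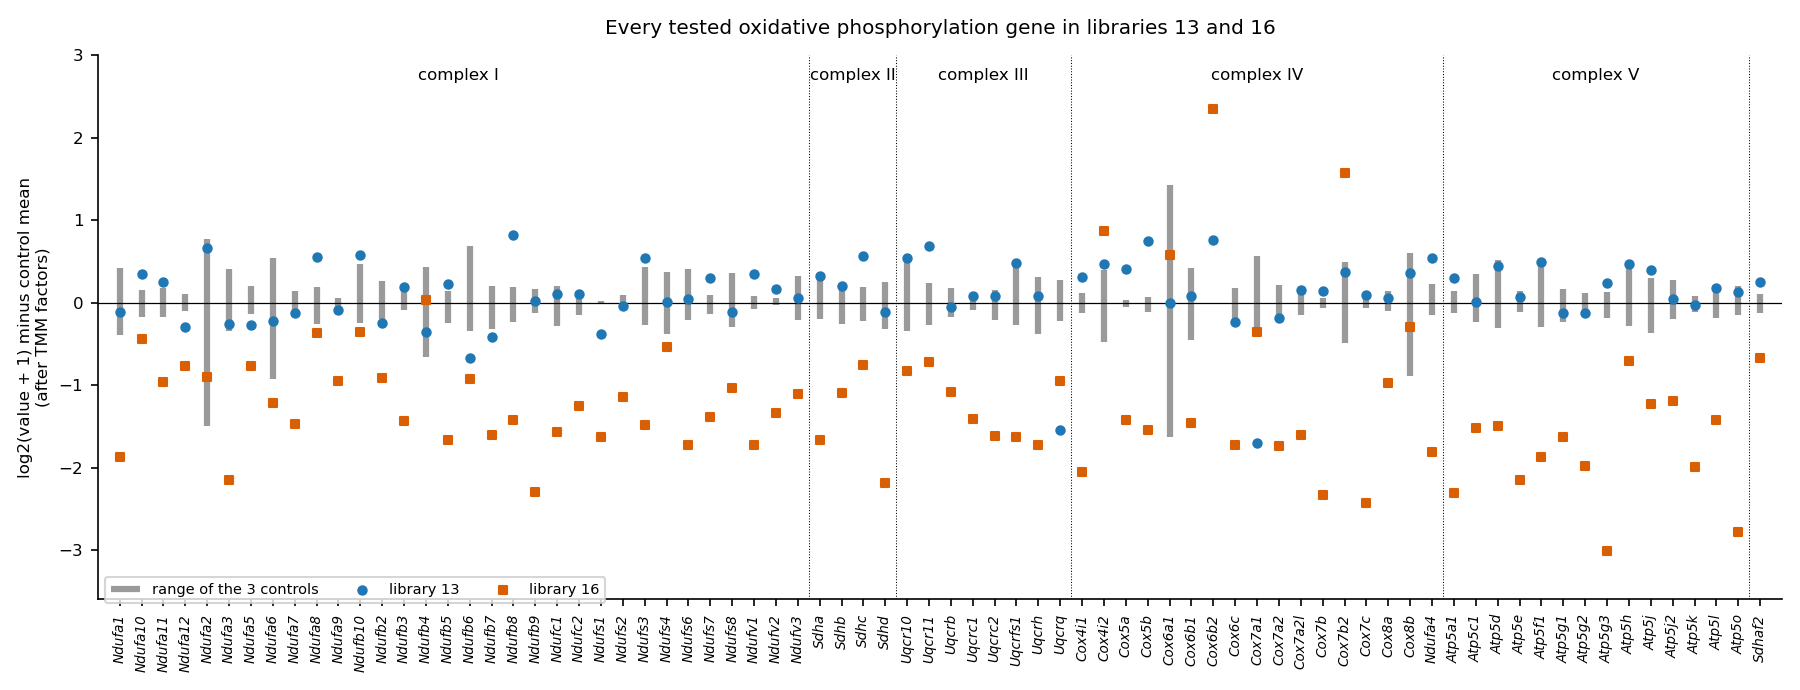
Change of every tested gene from the control mean, as log2(value + 1) after TMM factors, ordered by complex. Grey bars span the 3 controls, circles are library 13 and squares library 16. Squares lie below the grey bars for 68 of 76 genes, while circles lie on both sides of 0.

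Complex I, the largest of the complexes, takes electrons from NADH. Of its 32 tested genes, 30 were below every control in library 16 and 0 were above, against 39.8% and 43.8% of all genes. The median was -1.23 in library 16 and 0.04 in library 13. Ndufv1 encodes the flavoprotein that binds NADH. Its scaled level was 63, 60.3 and 67.4 in the controls, compared with 81.1 in library 13 and 18.5 in library 16. It was thus above the controls in library 13 and below them in library 16. Ndufs1, the largest subunit of the NADH-oxidizing arm, stood at 145, 143 and 142 in the controls, against 110 in library 13 and 45.7 in library 16. The controls lay close together and both knockout libraries were lower, with a fitted change of -1.01 (SE 0.43). Its region overlaps another listed gene, Gm11602, whose reads cannot be told apart from its own. Ndufb7 stood at 60, 43.9 and 63.5 in the controls, compared with 40.9 in library 13 and 17.5 in library 16. This accessory subunit of the membrane arm was also below every control in both libraries, with a fitted change of -1.01 (SE 0.47, adjusted p of 0.767 in limma). Ndufa3, the complex I gene with the highest tags per kilobase over all 5 libraries, stood at 40.5, 49.4 and 68.6 in the controls, against 43 in library 13 and 10.8 in library 16.

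Not all complex I genes shared that size of change. Ndufa8 encodes an accessory subunit with cysteine motifs, and its promoter holds the NRF1 core shown above. It stood at 30, 27.4 and 21.6 in the controls, compared with 38.8 in library 13 and 20 in library 16. Library 13 was above the controls and library 16 only just below them, and the fitted change was 0.10 (SE 0.48). In library 16 only 5 of the 76 genes lay within the controls, and Ndufa2, Cox6a1, Cox7a1 and Cox8b among them had 8 reads or fewer in every library. The other was Ndufb4, an accessory subunit of the membrane arm, chosen after its values were seen. It stood at 6.01, 11.9 and 14 in the controls, against 7.63 in library 13 and 10.3 in library 16. Ndufb9, also chosen after its values were seen, lay furthest below the controls of all complex I genes, at 75, 70.4 and 86.4 in the controls, compared with 78.3 in library 13 and 14.9 in library 16.

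Complex II, succinate dehydrogenase, links the citric acid cycle to the respiratory chain and has no mitochondrially encoded subunit. All 4 of its genes were below every control in library 16, against 39.8% of all genes, with a median of -1.38. In library 13 their median was 0.26. Sdha, the flavoprotein, stood at 172, 167 and 248 in the controls, against 241 in library 13 and 60.1 in library 16. Sdhb, the iron-sulfur subunit, stood at 82.5, 106 and 111, then 114 in library 13 and 45.7 in library 16. For these catalytic subunits library 13 was near the upper end of the controls and library 16 lay apart below them. The membrane anchor Sdhc stood at 76.5, 64 and 85.2 in the controls, compared with 111 in library 13 and 43.7 in library 16. The other anchor, Sdhd, stood at 82.5, 62.2 and 92.8, then 72.1 in library 13 and 16.4 in library 16. The anchors differed most from each other, with -0.76 for Sdhc and -2.18 for Sdhd in library 16. Sdhaf2, the assembly factor, stood at 72, 61.2 and 67.4 in the controls, against 79.7 in library 13 and 41.6 in library 16. It was above every control in library 13 and below every control in library 16, with differences of 0.25 and -0.67.

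In complex III, the cytochrome bc1 complex, all 8 genes were below every control in library 16, against 39.8% of all genes. The median was -1.25 in library 16 and 0.08 in library 13. Uqcrfs1, the Rieske iron-sulfur protein, stood at 46.5, 44.8 and 77.5 in the controls, against 76.3 in library 13 and 17 in library 16. Uqcrc2, a core protein, stood at 159, 192 and 206, then 195 in library 13 and 59.6 in library 16. In both cases library 13 lay within the controls and library 16 below all of them. Uqcrq, a small ubiquinone-binding subunit, had 0 to 2 reads per library, and a change was not detectable at that depth.

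Complex IV, cytochrome c oxidase, was the most divided. Of its 17 tested genes, 11 were below every control in library 16 and 3 were above, against 39.8% and 43.8% of all genes. The median there was -1.46. Cox4i1, a regulatory subunit next to the catalytic core, stood at 136, 161 and 150 in the controls, compared with 184 in library 13 and 35 in library 16. Cox5b stood at 24, 27.4 and 26.7, then 44.4 in library 13 and 8.23 in library 16. These 2 genes, with tags per kilobase among the highest of the complex, were highest in library 13 and lowest in library 16. Cox7c, chosen after its values were seen, lay furthest below the controls of the complex, at 31.5, 28.3 and 28 in the controls, against 31.2 in library 13 and 4.62 in library 16.

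Complex V, the ATP synthase, had the lowest median in library 16, -1.75. All of its 14 genes were below every control there, against 39.8% of all genes. Its median in library 13 was 0.15. Atp5a1, the alpha subunit of the catalytic head, stood at 546, 506 and 609 in the controls, against 681 in library 13 and 111 in library 16. Atp5k, a small membrane subunit whose promoter holds an NRF1 and an ETS core, stood at 24, 24.7 and 21.6, then 22.9 in library 13 and 5.14 in library 16. Its listed region spans 0.33 kb, so its tags per kilobase rest on few bases. Atp5o, part of the stalk that holds the head in place, was chosen after its values were seen. It stood at 69, 88.7 and 73.7 in the controls, compared with 83.9 in library 13 and 10.3 in library 16. Atp5a1 was also above the controls in library 13, Atp5k and Atp5o lay within them there, and all 3 were far below them in library 16. Medians with background subtracted put the complexes closer together in library 16, at -0.96 for complex I, -0.83 for II, -0.86 for III, -1.15 for IV and -1.10 for V.

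The 3 genes above every control in library 16, Cox4i2, Cox6b2 and Cox7b2, encode second forms of complex IV subunits. Cox6b2 passed the filter on the mean only through library 16, so its place among them was set by the filter. Cox4i2, the form known from lung, stood at 7.51, 14.6 and 11.4 in the controls, against 15.3 in library 13 and 20.6 in library 16. Its deposited level in library 16 was 36.4, of which the background over its region would give 15.1. Cox6b2, a testis form, had 0 reads in every control, 1 in library 13 and 8 in library 16. The 8 reads are 7.27 tags with an exact 95% Poisson interval of 3.14 to 14.3. In a single control, 0 reads allow up to 3.35 tags, so intervals of single libraries overlap. The controls were not pooled for this, so the overlap does not settle whether counting error could give the difference. Its region is 0.5 kb long, and the background would give 0.749 tags. Cox7b2, also known from testis, stood at 27, 38.4 and 19.1 in the controls, compared with 35.4 in library 13 and 82.8 in library 16. Its region is 104.58 kb long, and in library 16 the background would give 157 tags against a deposited 146. With background subtracted, it was at 0 in every library. So of these 3 genes Cox4i2 and Cox6b2 lay above the mean background in library 16, and Cox7b2 did not.

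After scaling, the main forms of the same subunits were below every control in library 16, with differences of -2.06 for Cox4i1, -1.46 for Cox6b1 and -2.33 for Cox7b. Per kilobase and as deposited, Cox4i1 stood at 16.2, 31.3 and 21 tags in the controls and 12.1 in library 16, while Cox4i2 stood at 0.452, 1.45 and 0.813 and then at 3.61. The Cox4i1 level was therefore still higher than that of Cox4i2 in each of the 5 libraries. Cox7b stood at 5.35, 8.56 and 5.81 tags per kilobase in the controls, against 12.4 in library 13 and 2.75 in library 16. Cox6b1 stood at 3.15, 7.27 and 6.84, then 9.88 in library 13 and 4.45 in library 16, so that as deposited library 16 lay within the controls for this gene. Cox7a2 and the related Cox7a2l, known for its part in supercomplexes, differed from the control mean by -1.74 and -1.60 in library 16 after scaling. Cox7a1, the muscle form, rests on 0 to 3 reads per library. Cox8a had 3 to 6 reads per library, Cox8b 0 to 2 and Cox8c 0 to 2. Cox6a1 ranged from 0 to 8 reads, with the extremes in 2 controls. A change of these 5 genes was not detectable at this depth.

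The c subunit of the ATP synthase ring is made from 3 genes that encode the same mature protein. Atp5g3 had the highest level, with 24, 31.6 and 26.7 tags per kilobase as deposited in the controls, compared with 56 in library 13 and 7.12 in library 16. Atp5g1 stood at 7.79, 10.4 and 9.95, then 14.7 in library 13 and 6.49 in library 16. Atp5g2 stood at 4.8, 7.27 and 4.8, then 8.75 in library 13 and 3.08 in library 16. Per kilobase, the order was therefore the same in all 5 libraries. Atp5g3 and Atp5g1 lay close together in library 16 only, at 16 and 15 reads, which is within counting error. That order rests on the region length, introns included, which is 7.38 kb for Atp5g2, 2.10 kb for Atp5g1 and 2.04 kb for Atp5g3. In deposited tags not divided by length, Atp5g2 was above Atp5g1 in all 5 libraries. In library 16 it was also above Atp5g3, at 22.73 against 14.55 tags. After scaling, the differences in library 16 were -3.02 for Atp5g3, the lowest of the 76 genes, -1.63 for Atp5g1 and -1.99 for Atp5g2.

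**Figure D3:**
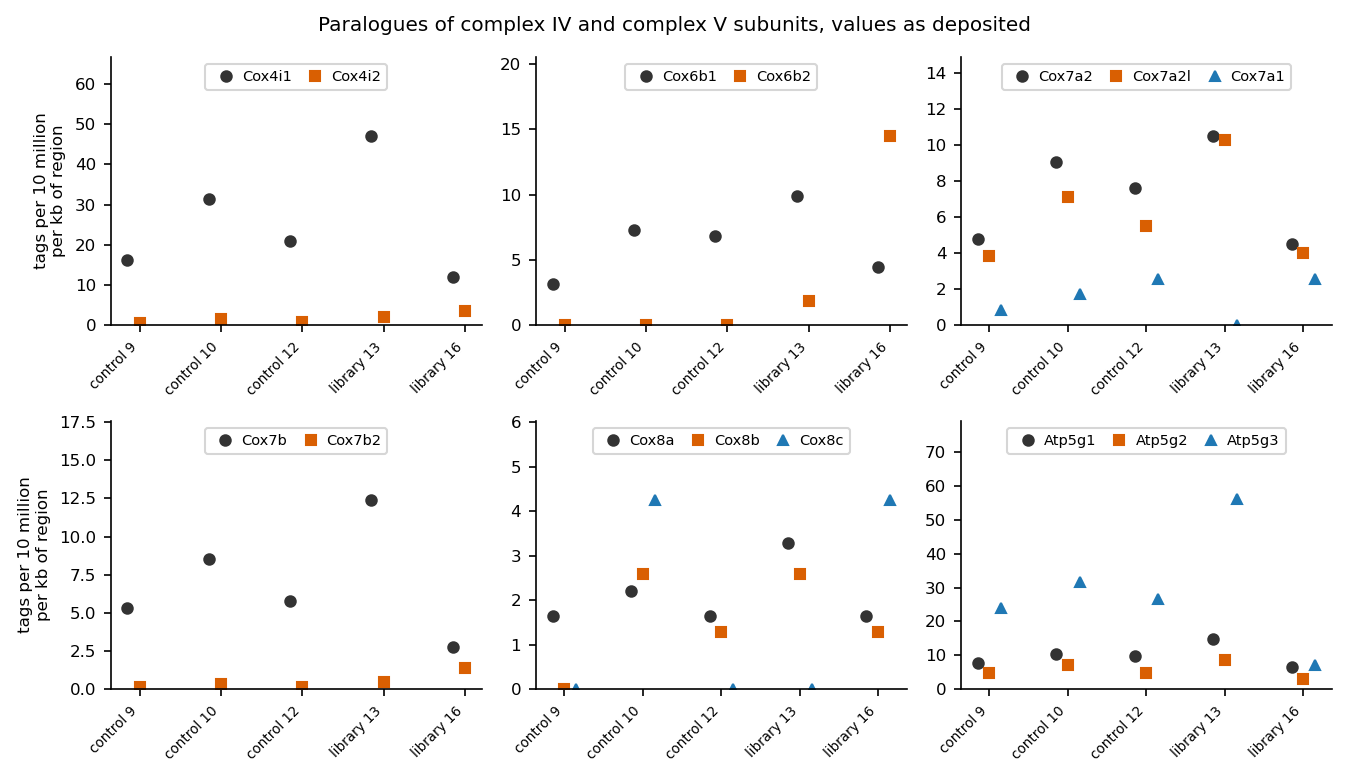
Levels of paralogous subunits in the 5 libraries, in tags per 10000000 per kilobase of region, as deposited, with 1 symbol per gene. The main forms Cox4i1 and Cox7b are lowest in library 16, where Cox4i2, Cox6b2 and Cox7b2 are highest.

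The size of the change in library 16 went with how strongly a gene was expressed in the controls. The 78 genes had a median control level of 4.39 tags per kilobase as deposited (range 0 to 55.9), against 0.966 for all genes. At or above that all-gene median were 74 of the 78. Across the 76 tested genes, Spearman's rho between the control level per kilobase and the change in library 16 was -0.79. With the region length it was 0.10. Genes are not independent replicates, and the change and the level share the control values. With background subtracted, rho was -0.28 over 73 genes.

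All genes with the same control level had a median change in the same direction, of like size from 5 tags per kilobase up. Between 5 and 10 tags per kilobase, the median change in library 16 was -1.61 for 20 oxidative phosphorylation genes and -1.62 for 1085 genes in all. Between 2 and 5 it was -1.34 for 27 of them and -1.02 for 3804 genes in all. Between 10 and 20 it was -1.73 for 9 and -1.97 for 418, and above 20 it was -2.16 for 5 and -2.25 for 338. Between 1 and 2 it was -0.65 for 12 and -0.27 for 4124, and under 1 it was 1.58 for 3 and 1.12 for 9544. Oxidative phosphorylation genes were thus lower than all genes of the bin between 1 and 5 tags per kilobase, and slightly higher than them from 5 up. With background subtracted, the medians were close in the bin from 5 to 10, at -1.03 against -1.05 for all genes, and above 20, at -1.31 against -1.29. They were -0.95 against -1.23 between 10 and 20. They lay lower than those of all genes for the 10 genes between 1 and 2, at -0.68 against -0.10, and for the 27 between 2 and 5, at -1.02 against -0.72. The 2 genes under 1, Cox4i2 at 1.73 and Cox6b2 at 2.96, had a median of 2.34 against 1.70. Cox6b2 is in the lowest bin on both scales and passed the filter only through library 16. No excess over all genes can be read from that bin. These are descriptions without a test, and the bins under 20 genes are thin.

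**Figure D4:**
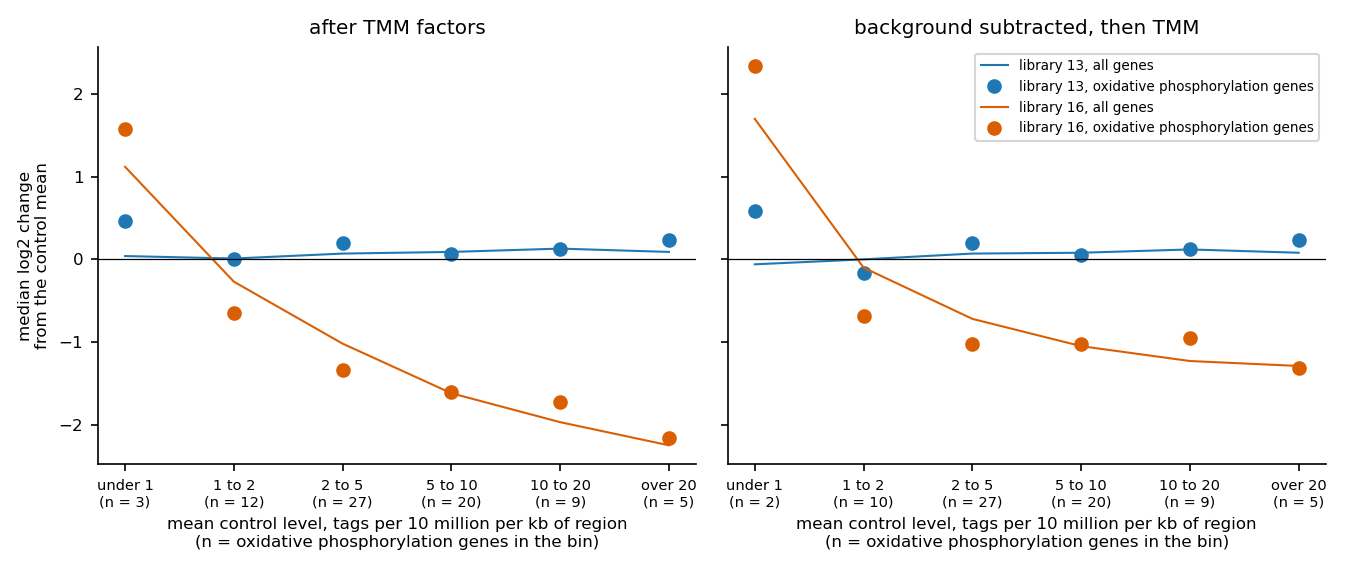
Median log2 change from the control mean in bins of the mean control level (tags per 10000000 per kilobase, as deposited), after TMM factors (left) and with background subtracted before scaling (right). Lines are all genes tested and circles the oxidative phosphorylation genes. In library 16 the circles follow the falling line of all genes, and in library 13 both stay near 0 except for the 3 genes under 1 tag per kilobase, at 0.46 (left), and 2 of them at 0.59 (right).

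Medians were close between genes with and without the promoter cores. The 29 genes with an NRF1, ETS or YY1 core had a median of -1.39 in library 16 and 0.05 in library 13. The 35 tested genes whose window held none had -1.43 and 0.20. Among the factors, Nrf1 stood at 223, 247 and 328 in the controls, against 281 in library 13 and 161 in library 16. Gabpa, the DNA-binding GABP subunit, stood at 72, 88.7 and 73.7, then 106 in library 13 and 22.6 in library 16. Tfam, which packages mitochondrial DNA and acts in its transcription, stood at 55.5, 57.6 and 63.5, then 78.3 in library 13 and 20.6 in library 16. All 3 were below every control in library 16. Of the 14 biogenesis factors, these among them, 8 were below every control there and 2 above, against 39.8% and 43.8% of all genes. The coactivator Ppargc1a stood at 93, 45.7 and 39.4 in the controls, compared with 54.1 in library 13 and 106 in library 16. It lay above every control in library 16, from a region of 98.87 kb. With background subtracted it stood at 41.7 there, within the controls at 5.85 to 47.2. Ppargc1b, from a region of 101.50 kb, was also above every control in library 16, at 145 against 80.1 to 103. With background subtracted Ppargc1b stood at 109 there, still above the controls at 43.8 to 56. Its deposited control mean of 70.3 tags puts it under 1 tag per kilobase. All 8269 genes at that level had a median change of 1.70 in library 16 with background subtracted.

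Related gene lists also had medians below 0 in library 16, and none of their genes passed the limma test. Of 12 other subunits and electron carriers, 10 had a negative fitted change and 2 a positive one, with a median of -0.72 in library 16. Cyc1, the cytochrome c1 of complex III, stood at 64.5, 62.2 and 41.9 in the controls, against 59.6 in library 13 and 10.8 in library 16. Assembly factors had 30 negative and 8 positive fitted changes among 38, with a median of -0.72 in library 16. Factors of mitochondrial biogenesis had 10 and 4 among 14, with a median of -0.66. Citric acid cycle genes had 15 and 1 among 16, with a median of -1.51, and mitochondrial ribosomal proteins had 63 and 9 among 72, with a median of -1.0.

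The same held for lists outside the mitochondrion. Glycolysis had 13 negative and 4 positive fitted changes among 17 genes, with a median of -1.18 in library 16. Pkm, a pyruvate kinase, stood at 685, 689 and 840 in the controls, compared with 905 in library 13 and 160 in library 16. Cytosolic ribosomal proteins had 47 and 4 among 51, with the lowest median of these lists, -2.19. In library 13 the medians of these 7 lists ran from 0.09 for the citric acid cycle to 0.29 for glycolysis. The oxidative phosphorylation genes, at -1.42 in library 16, therefore lay between the cytosolic ribosome and the assembly factors, and close to the citric acid cycle.

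**Figure D5:**
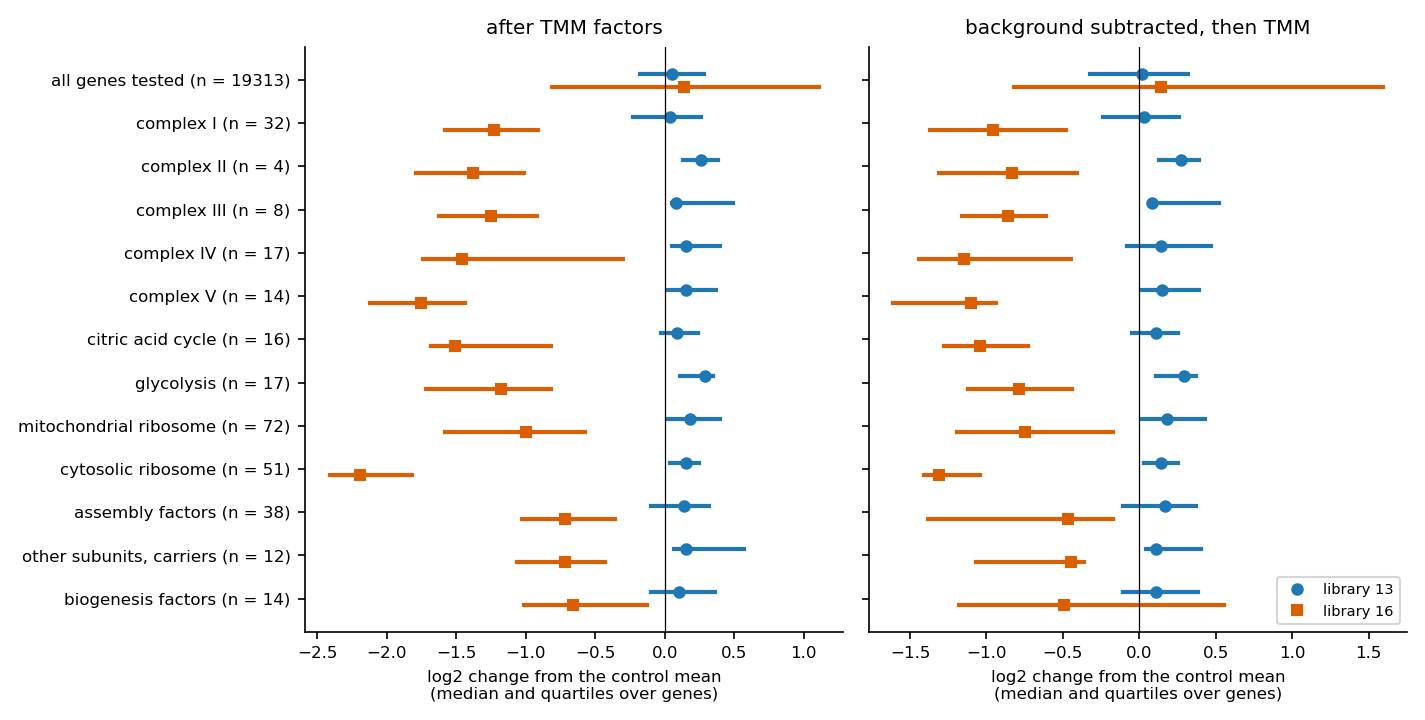
Median (symbols) and quartiles (bars) over genes of the log2 change from the control mean, for the 5 complexes and 7 other lists, after TMM factors (left) and with background subtracted before scaling (right). All 12 lists have a median below 0 in library 16 and above 0 in library 13 on both scales.

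Markers of other cells were read in the same libraries, and mesenchyme, endothelial and erythroid markers were present beside those of the epithelial gland that the labels name. Of 11 pituitary markers, 9 were below and 1 above every control in library 16, against 39.8% and 43.8% of all genes. Their median there was -1.56. Their summed scaled level was 743 to 1023 in the controls, against 1066 in library 13 and 324 in library 16. All 7 markers of the infundibulum, the neural tissue that touches the gland, were lower in both libraries, with sums of 649 to 787 in the controls, compared with 244 in library 13 and 136 in library 16. Of 10 mesenchyme markers, 7 were below every control in library 16 and the other 3 above, against 39.8% and 43.8% of all genes. Their sums were 1111 to 1328 in the controls, then 1004 in library 13 and 504 in library 16. All 17 muscle markers were higher in library 16 than the control mean, against 10308 of 19313 genes in all. Their sums were 210 to 386 in the controls, against 372 in library 13 and 548 in library 16. Ttn, from a region of 277.76 kb, made up 295 of that 548. With background subtracted Ttn stood at 109 in library 16, within the controls at 57.9 to 111. Among them Myog, Myf5, Myf6 and Acta1 were at 0 in at least 1 control, and Myf6 was also at 0 in library 13.

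Of 10 erythroid markers, 7 were higher in library 16, against 10308 of 19313 genes in all. Their sums were 378 to 737 in the controls, compared with 273 in library 13 and 470 in library 16. Hbb-bh1 was at 0 in control 10. Endothelial sums were 489 to 559 in the controls, against 493 in library 13 and 529 in library 16, with 4 of 10 markers higher in library 16. Neuronal sums were 1075 to 1200, then 964 and 785, with 4 of 9 higher in library 16. Oral epithelium, which also derives from Pitx1-expressing ectoderm, had sums of 479 to 523, then 636 and 578, with 7 of 10 higher in library 16. Krt15 was at 0 in control 9. With background subtracted before scaling, the muscle, erythroid and oral epithelium lists had higher medians in library 16 than the other marker lists. Above every control were 13 of the 14 muscle markers left and 7 of 10 in each of the other 2 lists. Over all genes it was 7926 of 18011. The muscle median was 1.71, with a sum of 338 against 90.4 to 196 in the controls. The erythroid median was then 1.23, with a sum of 733 against 317 to 543 in the controls. The oral epithelium median was 1.12, with a sum of 465 against 299 to 335. All 8269 genes under 1 tag per kilobase in the controls had a median of 1.70 in library 16 on that scale. Muscle was close to this value, and the erythroid and oral epithelium lists lay below it. The lists were not matched for control level. The part of these cell types, of background and of Rn45s in the level of the oxidative phosphorylation genes was not tested. In bulk tissue, fewer cells of a type and less RNA per cell cannot be told apart.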

How the data were processed

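RNA was measured in 3 control and 2 knockout pituitaries. The authors deposited a signal per gene region and library, normalized to 10000000 tags per the file headers. The longest region per symbol was kept. Bowtie2, HOMER, edgeR and the build mm9 stand in the submitters' processing notes, without roles or versions. The log2 fold change of the authors' deposited table was not used, since none of the genes is listed there. Regions are listed on 1 strand, so overlapping genes cannot be told apart (Ndufs1 overlaps another region). Their median offset was 800 bp at the start of genes on the plus strand and 400 bp at each end of genes on the minus strand, so short genes lose sequence (14 of the 78 regions are under 2000 bp).

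All values were whole reads at 11000000 tags per library (100.00% within 0.01 reads). Limma 3.58.1 in R 4.3.3, with a trend, was fitted to log2(value + 1) after TMM factors, for genes with a mean of at least 1, 2-sided, at an adjusted p of 0.05, and it was tested on simulated data. Changes on this scale understate those of low genes. The TMM fit replaced a fit on unscaled values because unscaled p-values also test the genome-wide shift. Alternatives were other scalings, filters and pseudocounts, background subtraction (tags per kilobase over 406 receptor genes, with a floor of 0), edgeR 4.0.16, DESeq2 1.42.0 (also without its independent filtering, added after the data were seen) and leaving out each library.

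Members, lists and tests were chosen with earlier results of these data known. Named genes were the 2 of each complex with the highest tags per kilobase, all paralogue groups, those of lowest p in each direction with a mean of 20 or more, all complex II genes, and the 2 of highest level in each other list. Only some of the last are printed, and factors named with the promoters were chosen after their values were seen. Poisson intervals cover counting error only.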

Additional observations from a re-analysis of the deposited data

How the results depend on the processing

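No oxidative phosphorylation gene passed the threshold under the 9 other settings besides DESeq2 that keep all 5 libraries. Over the 5 fits that leave out a library, the number ran from 0 to 30, and over all genes from 0 to 2461. DESeq2 called 25 genes, but 75 of the 76 had no adjusted p there. Without its independent filtering, an alternative chosen after seeing the data, it called 0 genes, with 353 at an unadjusted p under 0.05. The median fitted change of the genes, less that of all genes in the same fit, was -0.64. It was -0.53 with a pseudocount of 5, with edgeR and with DESeq2 (either filtering), and -0.46 with background subtracted. It ran from -1.55 without library 13 to 0.05 without library 16. Direction therefore rests on library 16. Leaving out a library gave -1.36 to -0.01 for complex I, -1.51 to 0.21 for complex II, -1.38 to 0.04 for III, -1.63 to 0.10 for IV and -1.88 to 0.11 for V. For single genes, also less the all-gene median, it gave -1.76 to -0.43 for Ndufs1, -1.73 to -0.47 for Ndufb7, -2.44 to 0.25 for Atp5a1, -3.14 to 0.19 for Atp5g3, -2.91 to 0.08 for Atp5o, -2.19 to 0.25 for Cox4i1, -1.68 to 0.70 for Cox5b, -0.58 to 0.95 for Cox6a1, -1.59 to 0.03 for Cox6b1, -1.73 to 0.10 for Cox7a2l, -2.46 to 0.10 for Cox7b, -2.55 to 0.04 for Cox7c, -1.08 to 0.00 for Cox8a, -0.48 to 0.28 for Cox8b, -0.50 to 0.50 for Ndufa8, -0.54 to 0.07 for Ndufb4, -1.86 to 0.30 for Ndufv1, -1.80 to 0.27 for Sdha, -0.80 to 0.20 for Sdhaf2, -1.23 to 0.16 for Sdhb, -0.89 to 0.51 for Sdhc, -1.75 to 0.03 for Uqcrc2 and -1.76 to 0.43 for Uqcrfs1. Cox6a1 also turned with no factors (-0.09), a pseudocount of 5 (-0.02), edgeR (-0.37) and DESeq2 (-0.32 with either filtering), Cox8b with a pseudocount of 0.5 (0.08), and Cox5b (0.00), Ndufb4 (0.01) and Sdhc (0.14) with background subtracted. The cause was not tested. Genes with few reads, such as Cox8b, are limited by depth. No paired analysis was possible because the control and knockout libraries share no replicate number.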
